A study of Mus musculus with 2 samples.

Results

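Early erythroid progenitors were taken here as marrow barcodes with transcripts of Klf1 or Car1 and little haemoglobin RNA, chosen by their measured UMIs of these and a few other genes, and 362 of 23794 barcodes that passed the quality limits met the rule. A barcode stands for 1 droplet, usually 1 cell, and a UMI is a counted RNA molecule. A kept barcode had 1000 or more UMIs and under 10% of them from mitochondrial genes. A member also had 4 or more UMIs of Klf1 and Car1 together, under 2% of UMIs from the adult globin genes Hba-a1, Hba-a2, Hbb-bs and Hbb-bt, at most 1 UMI of the platelet gene Pf4, and under 5% from the neutrophil genes S100a8 and S100a9. These levels chose the members, so they are given below as descriptions.

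The series holds 2 single-cell libraries of hematopoietic cells from mouse bone marrow, made with a 3′ droplet kit. Mice of both groups carried 1 copy of Mx1Cre, a Cre recombinase under the interferon-inducible Mx1 promoter, which is active in many marrow cell types and not in stem cells alone. The control library had the genotype Mx1Cre+/-;Rosa26+/+. The MYC library had Mx1Cre+/-;Rosa26LSL-MYC/LSL-MYC, in which Cre removes a stop cassette ahead of a MYC transgene at both Rosa26 alleles. By its design text, the study asked how MYC overexpression that starts in stem cells alters expression in the marrow's hematopoietic cells. The number, age and sex of the mice in each library, and any treatment that induced Cre, were not given in the sources used here. With 1 library in each group there was no replicate check and no test between genotypes, and all intervals below are 95% intervals that cover counting error only.

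Red cells arise from multipotent progenitors through stages that respond first to stem cell factor, whose receptor is Kit, and then to erythropoietin, whose receptor is Epor. GATA2 gives way to GATA1 on the way, and GATA1 with KLF1 switches on the genes for heme synthesis, the red cell membrane and globin. Early erythroid progenitors divide fast, make many ribosomes and take up iron before haemoglobin accumulates. MYC is a transcription factor that promotes growth, ribosome production and cell division, and its level normally declines as erythroid cells mature.

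The promoters of 3 genes of these roles are shown because GATA1 and KLF1 act at such sites: Klf1 itself, which chose the members, the receptor gene Epor, and the membrane skeleton gene Sptb, whose level differed between the libraries. Each covers 250 bases before to 50 after the RefSeq gene start, in GRCm38.p6, written 5′ to 3′ on the gene's strand, and capitals mark a match on either strand to a GATA-type motif. The motifs searched were AGATAA and its variant TGATAA, then AGATAG with its variant TGATAG, none of which overlaps another in these 3 promoters. Klf1 lies at chr8:84901732-84902031 on the plus strand, Epor at chr9:21963527-21963826 on the minus strand and Sptb at chr12:76710498-76710797 on the minus strand.
Klf1: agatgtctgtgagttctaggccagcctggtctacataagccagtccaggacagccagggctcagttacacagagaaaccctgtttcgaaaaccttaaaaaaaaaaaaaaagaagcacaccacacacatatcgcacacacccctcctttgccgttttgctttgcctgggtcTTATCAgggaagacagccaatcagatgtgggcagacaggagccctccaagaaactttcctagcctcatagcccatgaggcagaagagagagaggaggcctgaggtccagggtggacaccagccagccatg
Epor: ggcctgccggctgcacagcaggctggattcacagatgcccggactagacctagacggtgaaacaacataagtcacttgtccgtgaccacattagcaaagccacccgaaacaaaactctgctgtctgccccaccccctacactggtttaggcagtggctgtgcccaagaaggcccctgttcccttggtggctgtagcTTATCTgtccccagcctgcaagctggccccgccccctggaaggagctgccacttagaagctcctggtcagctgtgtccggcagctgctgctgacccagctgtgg
Sptb: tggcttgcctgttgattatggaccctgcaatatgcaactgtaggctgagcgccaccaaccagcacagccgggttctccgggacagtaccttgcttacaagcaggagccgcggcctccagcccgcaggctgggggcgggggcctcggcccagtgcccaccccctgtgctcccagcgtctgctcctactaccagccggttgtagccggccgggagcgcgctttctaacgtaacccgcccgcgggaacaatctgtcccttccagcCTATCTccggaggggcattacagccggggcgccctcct
The match begins at position -80 from the gene start in Klf1, at -54 in Epor and at 13 in Sptb. Such a match stood in 29.8% of all 32851 promoters of this length, so a match alone is common. It stood in 15 of 33 promoters (45.5%) found for 19 of the 30 genes of the erythroid membrane list used below, and in 5 of 21 (23.8%) found for 15 of the 19 genes of the heme synthesis list. No binding was measured, and these matches are descriptions of sequence.

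The control library gave 254 members, 1.92% of its 13251 kept barcodes (exact interval 1.69% to 2.16%). The MYC library gave 108, 1.02% of 10543 (0.841% to 1.24%). The share was thus lower in the MYC library by 0.90 on the log2 scale (log2 ratio -0.90, interval -1.24 to -0.57). The gap depended on how barcodes were kept. With mitochondrial UMIs under 5% the log2 ratio was -0.50. With every barcode thinned to 3000 UMIs it was -0.33 (interval -0.74 to 0.06, 137 and 86 members), but the limit of 4 UMIs of Klf1 and Car1 then turned away more control members, which had fewer UMIs of these genes (medians of 38 and 86 before thinning), so the thinned value is no comparison at equal depth alone. The members' median mitochondrial share was 4.65% in the control against 3.65% in the MYC library, and the part of this difference in the share of members was not tested.

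A later stage and a further progenitor class were counted by the same quality limits. Haemoglobin-rich barcodes, which met the rule except that globins made up 2% or more of their UMIs, were 617 (4.66%) in the control against 146 (1.38%) in the MYC library. Kit-positive barcodes, with 2 or more UMIs of Kit and none of Klf1 or Car1, were 314 (2.37%) and 259 (2.46%), with overlapping intervals. These carried granulocyte progenitor RNA, with Mpo at 8449 and 4910 CPM (UMIs scaled to the summed UMIs of a class, as parts of 1000000) and Elane at 6497 and 4641 CPM, and little of Gata1 (2.61 and 2.86 CPM) or Epor (2.06 and 1.85 CPM). With each barcode thinned to 3000 UMIs, 83.3% and 79.9% of them had a UMI of Mpo. They are therefore set beside the members below as another class of progenitor and not as the stage before them. All 3 are shares of the kept barcodes, so they also move with every other cell type counted.

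**Figure D1:**
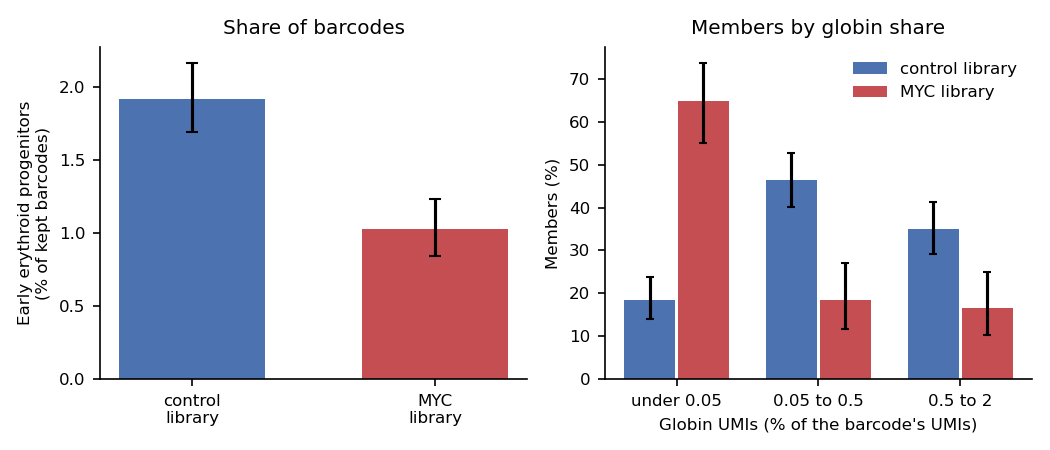
Left, early erythroid progenitors as a percent of kept barcodes in each library. Right, the members of each library split by the percent of their UMIs that came from globin genes; bars are percents and lines are exact 95% binomial intervals that cover counting error only. The MYC library has the lower share of members, and 64.8% of them lie in the lowest globin range against 18.5% in the control library.

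The members were deeply sequenced, with a median of 33796 UMIs and 5297.5 genes per control member and 31263 UMIs and 4903 genes per MYC member. Summed over members this gave 8744969 and 3190038 UMIs, so the MYC values rest on fewer molecules. UMIs per member ranged from 1176 to 106004 in the control and from 1068 to 61218 in the MYC library, and 27 and 16 members had under 7000.

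The rule fixed the presence of Klf1 or Car1, so the label was checked on the markers outside it. Car2, a carbonic anhydrase gene, had UMIs in both libraries, as did all 14 other erythroid markers listed, among them Gata1, Epor, Ermap and Gfi1b. At this depth a UMI alone says little, since all 10 neutrophil and all 6 monocyte markers listed had UMIs in both libraries too. The 14 erythroid markers summed to 3305 and 3035 CPM, the lowest of them at 76.5 CPM in each library. With each member thinned to 3000 UMIs, Car2 had a UMI in 96.7% of control and 96% of MYC members (unthinned 100% and 98.1%). In B lineage-like barcodes, which should lack it, the thinned shares were 23.6% and 12.3% at median depths of 5853 and 8805 UMIs. That class had no limit on S100a8 and S100a9 and carried much myeloid RNA, so it does not stand for B cells alone. S100a8 read 10542.5 and 7430 CPM there, Mpo 656 and 1281 CPM and Elane 547 and 1296 CPM. The source of this RNA was not tested. Gata1 had a UMI in 25.6% and 15.8% of thinned members against under 1% in B lineage-like barcodes (0.735% and 0.746%). Cd34, a marker of earlier progenitors, had a UMI in 3.94% of control and 1.85% of MYC members before thinning. At 3000 UMIs it was in 0.813% and in 0 of 101, which allows a share of up to 2.97% of members with a UMI at that depth (3 counts; exact upper limit 3.59%). Of the 27 control UMIs of Cd34, 20 came from members with under 0.05% globin, where it read 8.86 CPM; MYC members of that range had 2 UMIs (0.764 CPM).

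RNA of other cell types was also present. The 10 neutrophil markers summed to 4958 CPM in control and 5803 in MYC members, and all 10 had UMIs in both. S100a8 had a UMI in 82.5% and 83.2% of thinned members, no more than in B lineage-like barcodes (94.7% and 96.3%). The 4 neutrophil progenitor markers, Elane, Mpo, Prtn3 and Ctsg, summed to 185 and 621 CPM, but a single MYC member held 88.8% of the MYC UMIs of these genes. Without the richest barcode of each library Elane was lower in the MYC members by 1.18 on the log2 scale (log2 ratio -1.18), where it had been higher by 2.31 with it. The 6 basophil and mast markers summed to 113 and 14.4 CPM, and 1 control member held 88.6% of the control UMIs. Macrophage markers were low in both (3.89 and 20.7 CPM), and Cd79a, Igll1 and Ms4a1 of the B lineage were at 0 in MYC members. Leaving out the 9 control and 2 MYC members with 10 or more UMIs of the neutrophil progenitor genes gave 439 genes higher and 1047 lower in the MYC library, close to the counts given below. Of the 97 barcode sequences that both libraries contained, 1 belonged to a control member and none to a MYC member.

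The thresholds cut through a continuum. At the lower edge, 9 control and 6 MYC members had exactly 4 UMIs of Klf1 and Car1, and 14 and 7 barcodes with 3 UMIs fell just outside. At the globin edge, 8 control and 0 MYC members had 1.8% to 2% globin UMIs, and 7 and 1 barcodes had 2% to 2.2%. The highest globin share inside was 1.98% in the control against 1.78% in the MYC library, and the lowest outside was 2.07% and 2.10%. The Pf4 limit kept 15 and 8 members at 1 UMI and turned away 6 and 1 barcodes at 2.

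MYC members had less globin RNA. The median member had 0.242% globin UMIs in the control (quartiles 0.0656% and 0.754%) and 0.0296% in the MYC library (0.0190% and 0.150%). By range, 47, 118 and 89 control members had under 0.05%, 0.05% to 0.5% and 0.5% to 2% globin, against 70, 20 and 18 MYC members. Globin RNA also differed outside the erythroid line: its median share was 0.0556% and 0.0308% in Kit-positive barcodes and 0.144% and 0.0739% in B lineage-like barcodes, and the part of free RNA in the members' globin share was not tested. MYC members of the higher 2 ranges were also shallow, with medians of 9644 and 9709 UMIs against 36619 and 26708 in the control. Since globin share orders the members, the list medians and the genes the results turn on are given below also for members with under 0.05% globin, where the median of all genes was -0.21, and in places for members with 2 or more UMIs of Kit (91 control and 59 MYC members). Members under 0.05% globin need not be equally immature in both libraries, since globin was part of the rule and control members of that range had more Kit (154.5 and 113.4 CPM) and more Cd34.

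Within each library the genes followed a like sequence along globin share. Gata2, a transcription factor of early progenitors, read 55.3, 42.2 and 2.01 CPM over the 3 ranges in the control and 54.6, 70.5 and 4.32 CPM in the MYC library. Kit read 154.5, 64.2 and 8.05 CPM in the control and 113.4, 35.2 and 0 CPM in the MYC library. Slc4a1, the anion exchanger of the red cell membrane, went the other way, from 4.87 to 37.0 and 502.8 CPM in the control and from 4.20 to 20.6 and 285 CPM in the MYC library. In both libraries, members of the highest globin range thus had the least of both progenitor transcripts and the most of the membrane transcript. Hemgn, a nuclear protein gene of erythroid cells, read 93.4, 292 and 721 CPM in the control and 86.3, 305 and 372 CPM in the MYC library, apart only in the highest range. Tfrc, the transferrin receptor that brings in iron, was higher in the MYC library at every range (327, 443 and 614 CPM against 213, 358 and 508). Mki67, a proliferation gene, was higher in the control at every range (710, 1125 and 2118 CPM against 439, 676 and 1244), as was Klf1 (246, 285 and 365 CPM against 181, 176 and 255).

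**Figure D2:**
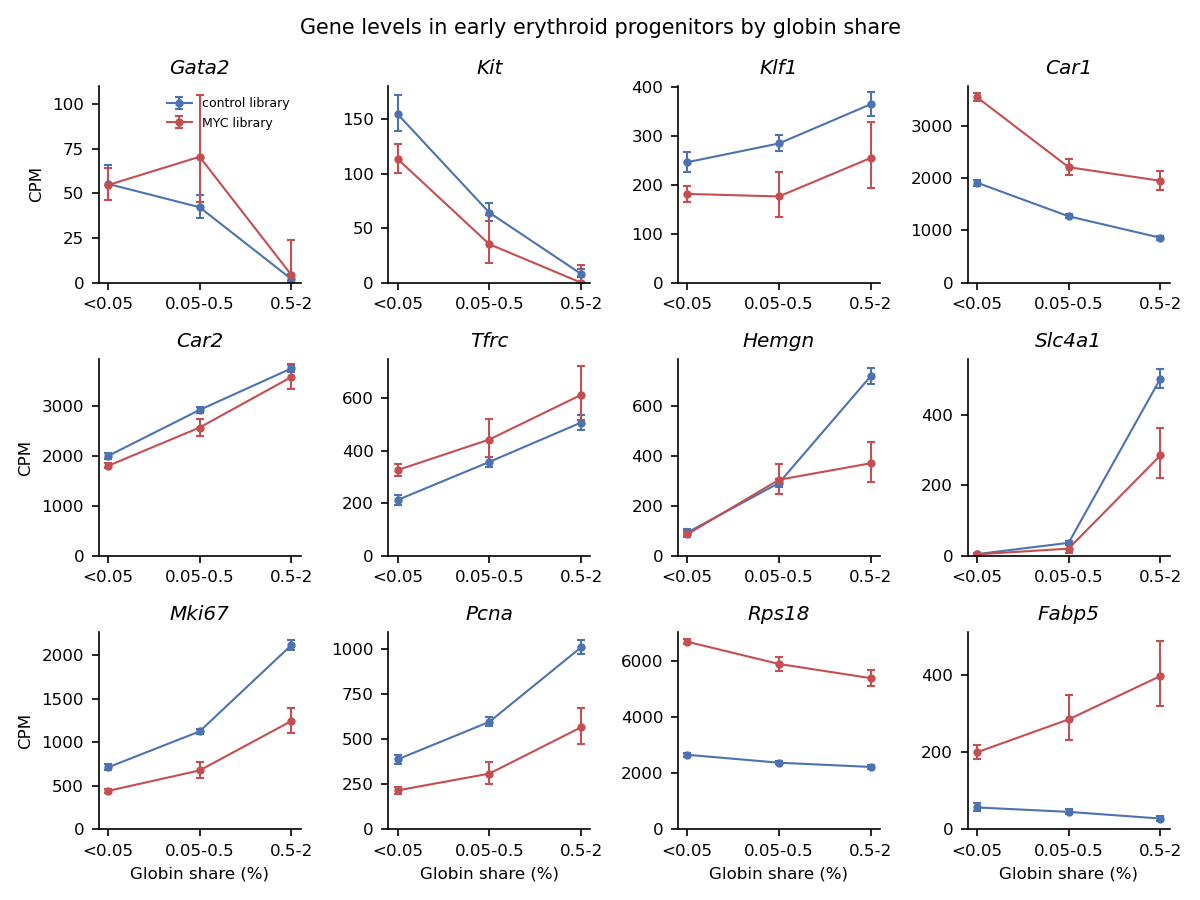
CPM of 12 genes in members of each library, split by globin share; lines on the points are exact 95% Poisson intervals that cover counting error only. Kit falls and Slc4a1 and Hemgn climb with globin share in both libraries, and Gata2 is lowest in the highest range, while Rps18 and Fabp5 are higher and Mki67 and Pcna lower in the MYC library at every range.

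Over all members, 5403 genes had a mean of 20 CPM or more. A gene was called when its level differed by at least 1.5-fold and the exact interval of the ratio left out 1. By this rule 428 genes (7.92%) were higher and 1033 (19.1%) lower in the MYC library, and the median gene had a log2 ratio of -0.16. Scaling by the median of ratios in place of the total moved that median to -0.07 and the calls to 586 higher and 780 lower, so that 42.9% rather than 29.3% of the called genes were higher. Leaving out the 20 most abundant genes moved it to -0.24, with 398 higher and 1458 lower. Among the abundant features was Gm42418, a gene model known to collect ribosomal RNA reads, at 133595 CPM in control and 68722 CPM in MYC members. In members under 0.05% globin, 260 of 5400 genes (4.81%) were higher and 917 (17%) lower, and list counts in each setting are read against these shares. In members with 2 or more Kit UMIs, 291 of 5452 (5.34%) were higher and 1006 (18.5%) lower. The 2 libraries also differ by animal and by preparation, and genotype cannot be told apart from these.

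**Figure D3:**
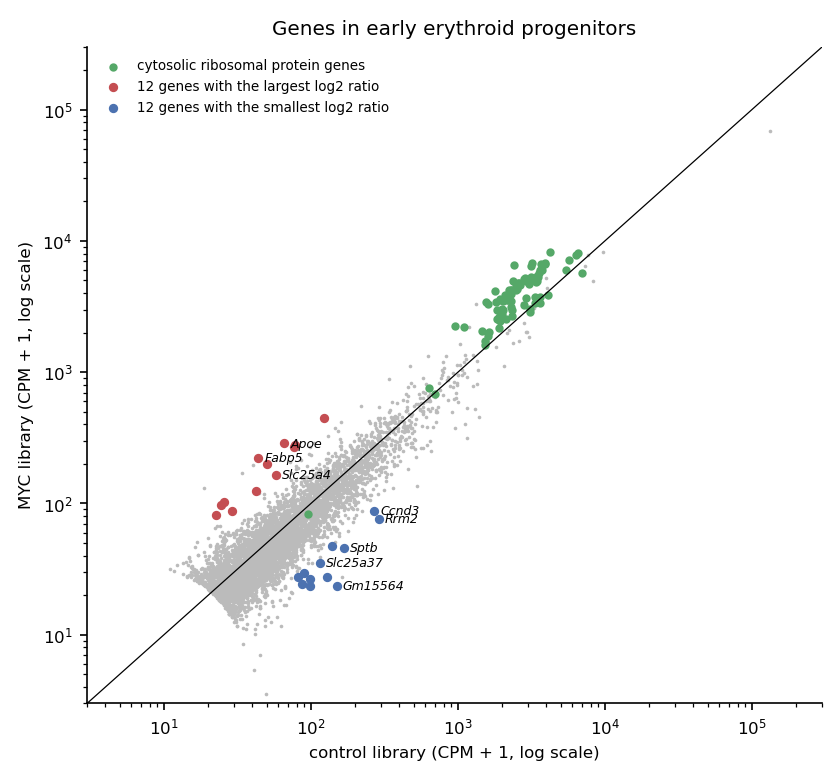
Level of each gene with a mean of 20 CPM or more in early erythroid progenitors, control library on the x axis and MYC library on the y axis, both as CPM + 1 on a log scale; the line marks equal levels. Cytosolic ribosomal protein genes sit mostly above the line, and 2 sets of 12 genes, at the upper and lower ends of the log2 ratio among genes with a mean of 50 CPM or more, are coloured; the lone point at the far right is Gm42418.

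Of the genes that chose the members, Klf1 (chr8:84901928-84905291, plus strand) read 297 CPM in control and 186 CPM in MYC members (log2 ratio -0.67, interval -0.81 to -0.55). Car1 (chr3:14766216-14808368, minus strand), an early carbonic anhydrase gene, read 1319 and 3290 CPM (log2 ratio 1.32). Car2 (chr3:14886273-14900770, plus strand) read 2920 and 2012 CPM (log2 ratio -0.54, short of 1.5-fold). The median member had 38 UMIs of Klf1 and Car1 together in the control against 86 in the MYC library, with the Car1 level higher and the Klf1 level lower in the MYC library.

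Of the 24 erythroid transcription factor genes, all were tested, none was called higher and 7 were called lower, at a median log2 ratio of -0.37 against -0.16 for all genes. The 7 were Klf1, E2f2 (73.6 and 19.7 CPM), Sox6 (54.5 and 15.7 CPM), Tal1 (196 and 104 CPM), Zbtb7a (189 and 110 CPM), Ikzf1 (204 and 134 CPM) and E2f4 (201 and 133 CPM). Klf1 helped choose the members, so its call and its place in the median are descriptions. The other calls are of genes outside the rule. Gata1, the main erythroid activator, read 109 and 76.8 CPM (log2 ratio -0.50, not called). In members under 0.05% globin the median was -0.37 against -0.21 for all genes, and 2 of 22 were called lower, a smaller share than the 17% of all genes there. Sox6, which helps silence embryonic globin, had a log2 ratio of 0.02 in that range (interval -0.99 to 1.04).

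The stem and multipotent progenitor list had 6 of 22 genes above 20 CPM, and the other 16 were too low to test. Gata2 read 34.2 and 52.7 CPM (log2 ratio 0.61, interval 0.34 to 0.90), and Egfl7 24.4 and 53.6 CPM (log2 ratio 1.11). Both were called higher and none was called lower. In members under 0.05% globin none of 6 was called higher and 1 was lower. Egfl7 had a log2 ratio of 0.48 there, and the interval of Gata2 spanned equality (log2 ratio -0.02, interval -0.38 to 0.34); in members with 2 or more Kit UMIs it was -0.19. Kit itself had a log2 ratio of 0.43 over all members (interval 0.24 to 0.64) and -0.44 under 0.05% globin (interval -0.67 to -0.22), so its direction depended on the members compared. At 0.5% to 2% globin Kit had 0 UMIs in the 18 MYC members, and no fold is given.

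Among 13 tested genes of erythropoietin and stem cell factor signalling, 2 were called in each direction. The erythropoietin receptor Epor read 99.6 and 89.0 CPM, and its interval spanned equality (log2 ratio -0.16, -0.36 to 0.03). Jak2, the kinase bound to that receptor, was lower (52.1 and 27.0 CPM), as was Ptpn11 (73.2 and 48.0 CPM). Pim1, a kinase induced by cytokines, was higher (37.9 and 57.7 CPM), as was Zfp36l2, an RNA-binding protein needed for self-renewal of early erythroid progenitors (148 and 230 CPM). Under 0.05% globin 1 of 13 was higher and 3 were lower, at a median of -0.07, and Zfp36l2 had a log2 ratio of 0.10.

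Genes of the red cell membrane and its cytoskeleton were lower in the MYC library, with 18 of 29 called lower, none higher and a median log2 ratio of -0.76. Slc4a1 (chr11:102348824-102366203, minus strand) read 161 and 26.3 CPM. Sptb, which encodes a chain of the membrane skeleton, read 167 and 45.1 CPM. Dmtn and Trim10 read 61.4 and 10.7 CPM, and 57.6 and 12.5 CPM. Under 0.05% globin the list's median was -0.38 against -0.21 for all genes there, and 4 of 25 were lower and 1 higher, a share near the 17% of all genes that were lower. At 0.5% to 2% globin it was -0.31. In that lowest range Slc4a1 was near background in both libraries (4.87 and 4.20 CPM), whereas Sptb read 29.7 and 19.5 CPM, just short of 1.5-fold (log2 ratio -0.58, interval -1.16 to -0.06). Slc4a1 was also uneven among MYC members, where 1 barcode held 27.4% of its UMIs.

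Heme synthesis genes had a median log2 ratio of -0.73, with 8 of 15 lower and none higher. Fech, which inserts iron into the ring, read 195 and 76.8 CPM. Abcb10, a mitochondrial transporter, read 146 and 50.2 CPM, Uros 65.8 and 21.6 CPM, and Abcb6 53.2 and 16.9 CPM. Under 0.05% globin the median was -0.11, with 2 lower and 1 higher, so most of the list's difference was not present there. Uros then had a log2 ratio of 0.07 and Abcb6 of -1.31. Alas2, the first enzyme in erythroid cells, had a mean short of 20 CPM (23.3 and 8.46 CPM), as did Alas1 of other tissues (12.8 and 27.0 CPM).

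Iron genes as a list were not far from all genes. Of 21 tested 6 were lower and 1 higher, against 19.1% and 7.92% of all genes, at a median of -0.26. Under 0.05% globin 5 were lower and 2 higher, against 17% and 4.81%, at a median of -0.07. Slc25a37, mitoferrin, which carries iron into mitochondria, read 114 and 34.2 CPM (log2 ratio -1.71, but -0.37 under 0.05% globin, interval -0.93 to 0.16). Slc40a1, ferroportin, read 67.2 and 34.2 CPM, and Steap3, the reductase of the transferrin cycle, 110 and 61.1 CPM. Their log2 ratios under 0.05% globin were -0.90 and -0.93. Hscb, an iron-sulfur co-chaperone, was the 1 gene higher (28.6 and 58.0 CPM). Tfrc was equal over all members (363 and 360 CPM, log2 ratio -0.01) but 0.62 higher in log2 terms under 0.05% globin. The 4 adult globin genes, which the rule capped, had log2 ratios from -1.95 for Hba-a2 to -1.46 for Hbb-bt; Hba-a1 and Hba-a2 are near-identical copies between which reads can be split. The alpha globin chaperone Ahsp was not analysed here.

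Cell cycle genes were lower in the MYC library. Of 42 tested S phase genes 27 were lower and none higher, at a median log2 ratio of -0.72. Pcna, the clamp of DNA polymerase, read 660 and 250 CPM. Rrm2, a subunit of the enzyme that makes DNA precursors, read 288 and 75.2 CPM, and Ccne2, a cyclin of S phase entry, 97.9 and 25.4 CPM. Mcm5, a part of the replication helicase, read 285 and 118 CPM. Of 50 G2/M genes 25 were lower and none higher, at a median of -0.59, led by Mki67 (1300 and 523 CPM, log2 ratio -1.31). Lbr read 253 and 115 CPM and Top2a 706 and 413 CPM. Genes of this list that were not called included Cdk1 (140 and 129 CPM), Cks2 (364 and 455 CPM) and Ube2c (253 and 290 CPM).

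The difference in cell cycle genes was smaller among members of like globin share. Under 0.05% globin the S phase median was -0.48, with 14 of 41 lower and 1 higher, against 17% of all genes called lower there. The G2/M median was -0.30 against -0.21 for all genes, and 8 of 48 were lower, a share near that of all genes. In members with 2 or more Kit UMIs the medians were -0.58 and -0.31. Pcna and Mki67 had log2 ratios of -0.85 and -0.69 under 0.05% globin, where both intervals left out equality (-0.80 to -0.58 for Mki67). In single control members the S phase genes made up a median of 0.659% of UMIs (quartiles 0.489% and 0.884%). In MYC members it was 0.328% (0.228% and 0.485%), so the quartile ranges did not overlap. The full ranges did overlap (0.0695% to 1.30% and 0.0428% to 1.27%). With each member thinned to 3000 UMIs, Pcna had a UMI in 83.3% of control and 50.5% of MYC members (unthinned 96.9% and 86.1%). In B lineage-like barcodes, some of which also divide, the thinned shares were 29% and 26.1%.

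Among 11 tested genes of G1 control 7 were lower and 1 higher, at a median of -0.87. The median was 0.03 over the 5 genes with a mean of 100 CPM or more (Ccnd2, Ccnd3, Ccne1, Cdk4 and Cdk6) and -0.13 with barcodes thinned to 3000 UMIs. The cyclin D genes went in opposite directions: Ccnd3, the D cyclin of later erythroid divisions, read 268 and 86.2 CPM, whereas Ccnd2 read 78.7 and 192 CPM. In each library Ccnd2 was lower and Ccnd3 higher in members with more globin, and under 0.05% globin the log2 ratio was 0.48 for Ccnd2 and -0.52 for Ccnd3. Ccne1 (153 and 55.2 CPM) and Rb1 (73.2 and 35.1 CPM) were lower, and Cdk4 and Cdk6 were not called. Under 0.05% globin 1 of 10 was called lower and none higher, at a median of -0.39, with Ccne1 at -1.16 and Rb1 at -0.30 (interval -0.80 to 0.17).

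Cytosolic ribosomal protein genes, the longest list, had the largest number of genes higher. Of 80 tested, 45 were called higher and none lower, at a median log2 ratio of 0.66. The ATF4 and other S100 lists, given below, had larger medians (0.71 and 0.95). The summed level of the ribosomal protein genes was 216222 CPM in control and 325876 CPM in MYC members. Rps18 read 2403 and 6519 CPM (log2 ratio 1.44, interval 1.41 to 1.47), Rpl10 949 and 2266 CPM, Rps3 1796 and 4132 CPM and Rpl15 1543 and 3402 CPM. In single control members the list's genes made up a median of 20.9% of UMIs (quartiles 18.0% and 23.1%). In MYC members it was 31.8% (29.2% and 34.6%), so the quartile ranges did not overlap. The full ranges did overlap (3.57% to 33.4% and 7.59% to 49.4%). Under 0.05% globin the median was 0.58, with 39 of 80 higher, so this difference was of like size among members with little globin RNA. Such genes have many processed pseudogenes, and how the counting split such reads was not given in the sources used here.

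The difference in ribosomal protein genes was not particular to early erythroid progenitors. Their median log2 ratio was 0.38 in Kit-positive barcodes, 1.11 in haemoglobin-rich barcodes and 1.12 in B lineage-like barcodes. Rps18 had log2 ratios of 0.91, 2.10 and 1.97 there. The antisense transcript Gm15564, at the other extreme, was lower in all 4 classes (log2 ratio -2.67 in early erythroid progenitors and -2.22, -2.65 and -2.84 in the others).

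**Figure D4:**
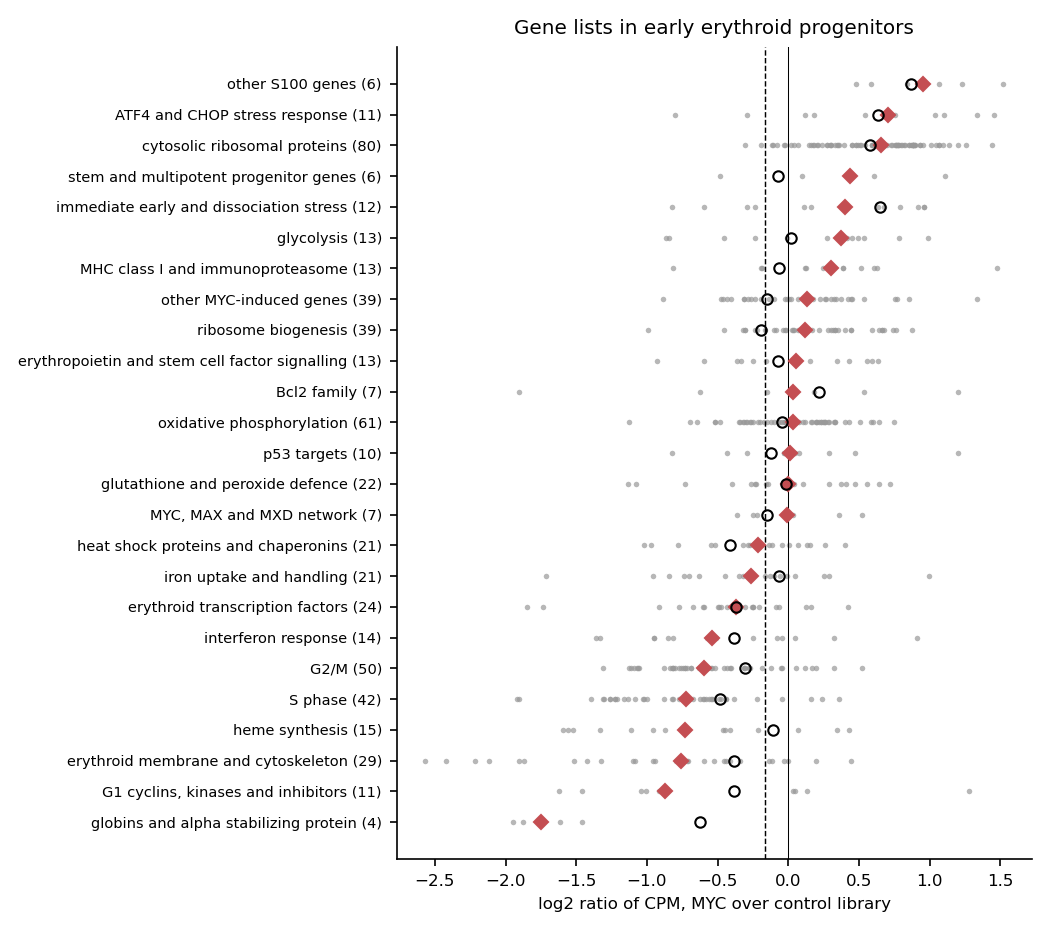
Log2 ratio of CPM, MYC over control library, for each tested gene (grey points) of 25 gene lists in early erythroid progenitors, with the number of tested genes in brackets. Diamonds are the list medians over all members, open circles the medians in members under 0.05% globin, and the dashed line the median of all genes (-0.16). By diamonds, the other S100, ATF4 and ribosomal protein lists lie furthest to the right. The globin, G1, membrane, heme, S phase and G2/M lists lie furthest to the left.

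Both lists of genes that MYC is known to induce had medians near 0. Of 39 tested ribosome biogenesis genes 8 were higher and 1 lower, at a median of 0.12, and under 0.05% globin 7 of 40 were lower, none higher and the median was -0.20, close to all genes there (17% lower, median -0.21). Nop16 read 41.5 and 76.8 CPM, Wdr74 54.9 and 93.7 CPM and Bysl 57.2 and 28.2 CPM. Nucleolin, Ncl, which is abundant in these cells, read 2237 and 2089 CPM. Of 39 other MYC-induced genes 4 were higher and 1 lower, at a median of 0.14 (-0.15 under 0.05% globin, with 2 higher and 7 lower, also near the shares of all genes). Nme2 (217 and 549 CPM), Dctpp1 (85.8 and 156 CPM), Shmt2 (66.4 and 114 CPM) and Mthfd2 (41.7 and 71.2 CPM) were higher, and Odc1, the first enzyme of polyamine synthesis, was lower (317 and 171 CPM). Under 0.05% globin Nme2 had a log2 ratio of 0.77 and Odc1 of -0.94. The feature named MYC had 0 UMIs in control and 3 UMIs in MYC members (0.940 CPM), at or under the floor of 3 counts, so no fold is given; its sequence was not given in the sources used here. It had 0 UMIs in the control and 5, 3 and 10 UMIs in the MYC library in Kit-positive, haemoglobin-rich and B lineage-like barcodes. All of these UMIs thus fell in the library labelled MYC, but they are too few to measure how much MYC the members made. The mouse Myc gene (chr15:61985391-61990374, plus strand) read 72.5 and 104 CPM (log2 ratio 0.52, not called), and -0.13 in log2 terms under 0.05% globin. None of 7 tested genes of the MYC, MAX and MXD network was called over all members, and 1 was called lower under 0.05% globin.

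Of 11 tested ATF4 and CHOP stress genes 6 were higher and 1 lower, at a median of 0.71. Phgdh (84.8 and 215 CPM), Psat1 (33.8 and 73.7 CPM) and Psph (18.9 and 53.6 CPM), the enzymes of the serine pathway in order, were among those higher. Ddit3, which encodes CHOP, read 24.9 and 52.4 CPM, and Slc3a2, an amino acid transporter subunit, 65.2 and 107 CPM. Eif2ak1, the heme-regulated kinase, was lower (67.2 and 38.2 CPM), and Atf4 itself was not called (121 and 138 CPM). Under 0.05% globin 7 of 11 were higher and none lower, at a median of 0.63. In Kit-positive, haemoglobin-rich and B lineage-like barcodes the medians were 0.71, 1.41 and 1.02, so the list was higher in the MYC library in all 4 classes.

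Interferon response genes had 6 of 14 tested genes lower and 1 higher, at a median of -0.54, which was -0.04 over the 3 genes with a mean of 100 CPM or more. Cmpk2, a nucleotide kinase gene induced by interferon, read 48.0 and 18.5 CPM, Isg20 199.9 and 103 CPM and Dtx3l 32.5 and 16.3 CPM. The median was -0.38 under 0.05% globin, -0.48 in Kit-positive barcodes and -1.21 in haemoglobin-rich barcodes. Mx1 and Mx2 were not analysed here. MHC class I and immunoproteasome genes had 3 of 13 higher and 1 lower, with Psmb8 at 43.6 and 123 CPM and Tapbp at 77.3 and 43.6 CPM; under 0.05% globin none was higher and 2 were lower, at a median of -0.07.

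Among immediate early genes, which rise within minutes of a stimulus or of tissue handling, 6 of 12 were higher and 2 lower, and under 0.05% globin 5 of 9 were higher and none lower. Jun (36.02 and 70.8 CPM), Ier2 (29.8 and 57.4 CPM) and Cebpb (24.0 and 47.6 CPM) were higher. Btg2, an antiproliferative gene, was lower over all members (41.9 and 23.2 CPM). Under 0.05% globin its log2 ratio was 1.02 (6.64 and 14.5 CPM), at a mean short of 20 CPM and so not called there. Of 10 tested p53 targets Bax, which promotes apoptosis, was the 1 called higher (80.6 and 187 CPM, log2 ratio 0.92 under 0.05% globin), and Btg2 was the 1 called lower. Of 7 tested Bcl2 family genes 1, Bax, was higher and 2 were lower, at a median of 0.04. Bcl2l11, which encodes the killer protein BIM, read 40.4 and 10.0 CPM and Bak1 82.1 and 52.98 CPM. Under 0.05% globin 1 of 6 was higher and 1 lower, at a median of 0.22. There Bak1 had a log2 ratio of -0.74, and Bcl2l11 one of -0.91 at a mean short of 20 CPM.

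The remaining lists are read against the 7.92% of all genes called higher and the 19.1% called lower. Oxidative phosphorylation had 4 of 61 higher and 3 lower at a median of 0.03 (-0.04 under 0.05% globin, with 1 higher and 4 lower), with Atp5g2 at 455 and 766 CPM and Atp5k at 611 and 279 CPM. Glycolysis had 2 of 13 in each direction at a median of 0.37, and 1 higher and 3 lower at a median of 0.02 under 0.05% globin, with Gapdh higher (480 and 828 CPM) and Pklr, the red cell pyruvate kinase, lower (104 and 56.7 CPM). Of 22 glutathione and peroxide genes 2 were higher and 3 lower: Gclc (144 and 65.2 CPM), Sod1 (559 and 265 CPM) and Gpx1 (1339 and 808 CPM). Under 0.05% globin 2 of 21 were higher and 3 lower, at a median of -0.02. Heat shock and chaperonin genes had none of 21 higher and 3 lower, among them the chaperones of the endoplasmic reticulum Hspa5 (329 and 167 CPM) and Hsp90b1 (299 and 174 CPM). Under 0.05% globin 6 of 21 were lower, at a median of -0.41. Of 6 tested S100 genes other than the neutrophil pair 4 were higher, with S100a10 at 56.1 and 118 CPM and S100a4 at 16.1 and 39.2 CPM. A single MYC member held 46.4% of the MYC UMIs of S100a4, whose log2 ratio was 1.23 with and 0.76 without the richest barcode of each library. Under 0.05% globin 3 of 5 were higher, and the log2 ratio of S100a10 was 0.35.

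The genes with the largest log2 ratio were taken as the top 12 among those with a mean of 50 CPM or more, without globins and the listed markers of other stages and cell types. Fabp5, a fatty acid carrier (chr3:10012548-10016607, plus strand), led with 42.8 CPM in control (exact interval 38.5 to 47.3) and 223 CPM in MYC members (207 to 240), a log2 ratio of 2.35. It was also higher under 0.05% globin (56.2 and 199 CPM) and in all 3 other classes, with log2 ratios of 1.21, 3.85 and 1.81 in Kit-positive, haemoglobin-rich and B lineage-like barcodes. Apoe, the lipid carrier (chr7:19696109-19699188, minus strand), read 65.0 and 286 CPM. It read 81.1 and 383 CPM in B lineage-like barcodes, where a thinned share of 15.9% and 31.3% had a UMI. In early erythroid progenitors the thinned shares were 11.8% and 33.7%, so they did not stand above that class beyond their intervals. B lineage-like barcodes also carried myeloid RNA, as given above. Khk, ketohexokinase, read 24.8 and 102 CPM. Ptprcap, Ramp1, Plac8 and Gmfg, which are expressed in blood cells outside the erythroid line, had log2 ratios of 1.98, 1.86, 1.82 and 1.59; 1 MYC member held 17.2% of the MYC UMIs of Plac8. Bex4 read 77.2 and 276 CPM and was scarce in Kit-positive barcodes (2.61 and 2.86 CPM). Slc25a4, a mitochondrial ADP/ATP carrier, Trappc6a, and the non-coding Gm15915 and 2410006H16Rik made up the rest, at log2 ratios from 1.52 to 1.98. Under 0.05% globin log2 ratios were smaller, at 1.36 for Apoe, 1.33 for Khk, 1.49 for Bex4 and 1.27 for Gmfg. They were 1.20 for Gm15915 and 1.62 for 2410006H16Rik, and Plac8 read 117 and 265 CPM.

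At the other end, the 12 lowest log2 ratios by the same choice were those of Sptb, Slc25a37, Rrm2, Ccne2 and Ccnd3, described above, and of other genes that included Dck, the kinase that salvages deoxycytidine (98.0 and 22.6 CPM), Ncapg2, a condensin subunit (139 and 46.1 CPM), Ell2, an elongation factor (88.7 and 28.5 CPM), Lpcat1, a phospholipid enzyme (85.4 and 23.2 CPM), Polr2l (81.2 and 26.6 CPM) and Gm15564 (149 and 22.6 CPM; chr16:35966752-35983230, minus strand). Those named also had negative log2 ratios under 0.05% globin, from -0.37 for Slc25a37, whose interval spanned equality, to -2.83 for Gm15564. Sptb (-0.58) and Ccnd3 (-0.52) fell short of 1.5-fold there. Gm15564 is annotated as antisense, and whether the counting used strand was not given in the sources used here.

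Set beside Kit-positive and haemoglobin-rich barcodes, early erythroid progenitors had an S phase median of -0.72 over all members and of -0.48 under 0.05% globin, against -0.13 and -0.20 in those classes. The G2/M median was -0.59 over all members and -0.30 under 0.05% globin, against -0.11 and -0.37. Differences between classes were not tested. Tfrc was higher in haemoglobin-rich barcodes than in early erythroid progenitors in both libraries, at 1098 against 363 CPM for the control library and 1234 against 360 CPM for the MYC library. Pcna likewise read 949 against 660 CPM for the control and 636 against 250 CPM for MYC. In Kit-positive barcodes Pcna read 286 and 218 CPM and Tfrc 60.8 and 158 CPM (log2 ratio 1.37).

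**Figure D5:**
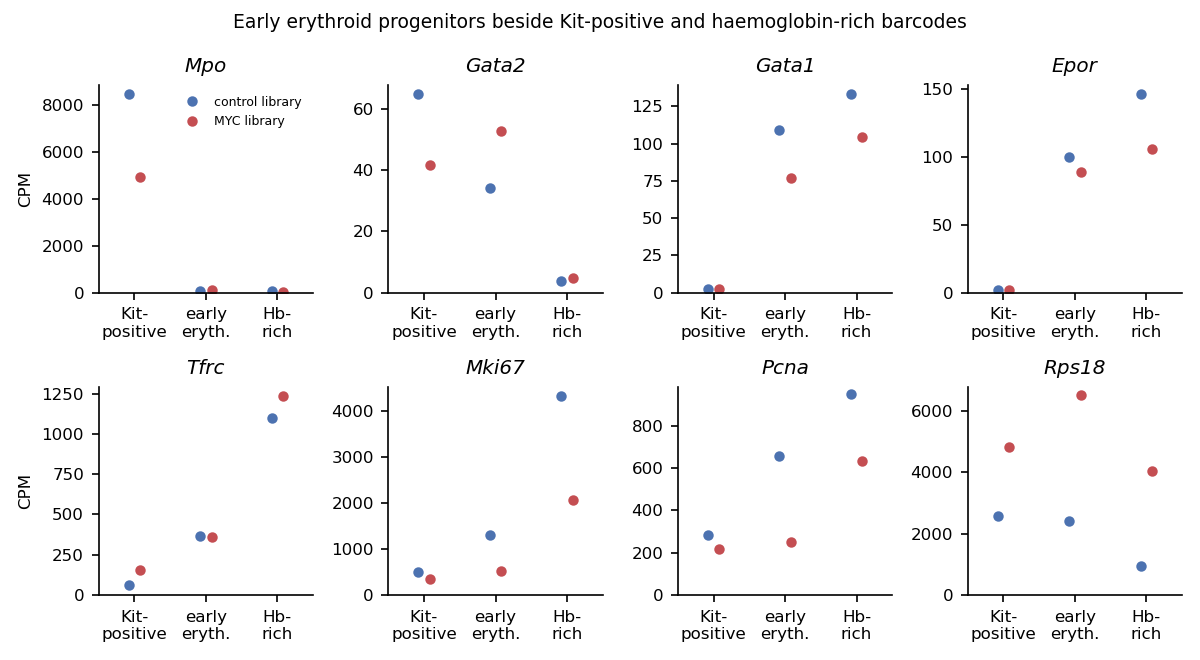
CPM of 8 genes in Kit-positive barcodes, early erythroid progenitors and haemoglobin-rich barcodes; each point is 1 class of 1 library. Mpo is high in Kit-positive barcodes alone of the 3 classes, Gata1, Epor, Tfrc and Mki67 are higher in haemoglobin-rich barcodes than in early erythroid progenitors in both libraries, and Rps18 is higher in the MYC library in every class.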

How the data were processed

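The deposited matrices hold counts, whole-number UMIs per gene and barcode, which the authors made, per the file headers, in Cell Ranger 6.0.0. The submitters' processing notes name Cell Ranger 6.0, Seurat, GRCm38 and mm10, with no order. The reference annotation and cell calling were not given in the sources used here. The control and MYC libraries held 17073 and 14496 barcodes and 131884603 and 110012176 UMIs over 32286 features. Features were matched by gene ID to GENCODE vM21 for coordinates (99.6%), and promoters came from RefSeq GRCm38.p6.

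The members and gene lists were chosen with earlier results of these data known. UMIs were summed over the members of each library and divided by the members' total (CPM). Log2 ratios are MYC over control with a pseudocount of 1 CPM; ratio intervals are exact conditional binomial intervals without it. Levels have exact Poisson and shares exact Clopper-Pearson intervals, all at 95%; UMIs limit but do not remove counting bias. Genes with a mean of 20 CPM were tested against 1.5-fold and an interval leaving out 1. With 1 library per group no p-value exists. Named genes were the 12 highest and 12 lowest log2 ratios (mean of 50 CPM or more, without the rule's genes, globins, other cell types' markers, immunoglobulin, mitochondrial, T-cell receptor or Y-linked genes or Xist), up to 4 per list by absolute log2 ratio, and a fixed set of erythroid, Myc and Mki67 genes; others were named after their values were seen, and some genes are not reported here. Shares with a UMI used barcodes thinned to 3000 UMIs, leaving out 8 control and 7 MYC members. B lineage-like barcodes had 3 or more UMIs of Cd79a and Cd79b and none of Klf1 or Car1. No doublets were removed; Scrublet's automatic threshold called 670 control and 0 MYC barcodes, so it had not worked in the MYC library and was not used. The ratio script was tested on simulated counts. Python 3.11.15, numpy 2.4.6, scipy 1.17.1 and scanpy 1.11.5 were used.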

Additional observations from a re-analysis of the deposited data

Results flagged for a closer look

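Bst2, an interferon-induced membrane protein gene, differed in opposite directions in adjoining stages. Its log2 ratio of MYC over control was 0.91 in early erythroid progenitors (interval 0.71 to 1.14, 50.2 and 95.3 CPM) and -0.96 in haemoglobin-rich barcodes (interval -1.54 to -0.52). In members under 0.05% globin it was 0.58 (70.8 and 107 CPM), just short of 1.5-fold. The difference between the stages was not tested, since each stage has 1 library per genotype.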

How the results depend on the processing

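No paired analysis was possible because each group has 1 library and no test. Of 2500 recomputed gene values 1931 stayed within their counting interval, 536 left it and 33 changed sign where the interval had left out equality. Of 523 list medians 499 stayed within the interval of the median over the list's genes and 24 left it. Medians whose interval spans 0 could change sign, as the ribosome biogenesis median did under 0.05% globin (-0.20). With a mean of 100 CPM or more, which leaves few genes of these lists, the G1 median was 0.03 and the interferon median -0.04; at 0.5% to 2% globin the stem median was -0.26 and the MHC median -0.47. The settings under 0.05% globin, 2 or more Kit UMIs, Scrublet scores over 0.25 (which removed no member), without barcodes rich in neutrophil progenitor genes and without each gene's richest barcode were chosen after seeing the data; removal by Scrublet's automatic threshold was not run. Causes were not tested, except that thinning and CPM filters change how many genes and UMIs are used. The log2 ratio of the member share was -0.50 with mitochondrial UMIs under 5% and -0.33 with barcodes thinned to 3000 UMIs. Against 428 genes higher and 1033 lower, thinning gave 263 and 469, a mean of 5 CPM 792 and 1664, of 100 CPM 149 and 195, and no filter 1147 and 1877; 260 were higher under 0.05% globin and 409 lower at 0.5% to 2%. The membrane median was -0.31 at 0.5% to 2% and -0.38 under 0.05%, and the heme median -0.11 under 0.05%. The S phase median was -0.49 thinned, -0.50 at 0.5% to 2%, -0.48 under 0.05% and -0.58 with Kit; the G2/M median was -0.32, -0.30 and -0.31 in the last 3. The sign changes that follow had intervals that spanned equality under the alternative, so no opposite direction is shown, except for Hbb-bt at 0.5% to 2% globin, Btg2 and Kit under 0.05% and Sox4 with Kit. The globin genes, Hbb-bt among them, set the globin ranges, and Kit set the setting with Kit. Their values there are descriptions of the choice and show no opposite direction. Btg2 had a mean short of 20 CPM under 0.05%. Kit, Psmb8 and Sox4 had 0 MYC UMIs at 0.5% to 2%, so their values there depend on the pseudocount and are no fold. Signs changed at 0.5% to 2% globin (18 MYC members) for Apoe (-0.35), Dtx3l (0.16), E2f2 (0.095), Egfl7 (-0.032), Gmfg (-1.81), H2-Q7 (-0.48), Hba-a1 (0.046), Hba-a2 (0.051), Hbb-bt (0.44), Kit (-3.18), Myc (-1.90), Pgam1 (-0.15), Pklr (0.040), Psmb8 (-3.11), Ramp1 (-0.48), S100a10 (-1.25) and Sox4 (-0.85). Under 0.05% they changed for Btg2 (1.02), Gata2 (-0.019), Kit (-0.44), Myc (-0.13), Sox4 (-0.13), Sox6 (0.019) and Uros (0.072). With Kit they changed for Btg2 (0.49), Gata2 (-0.19), Kit (-0.17) and Sox4 (-0.63), thinned for Btg2 (0.50), Mdm2 (0.43), Runx1 (0.66) and Trp53 (-0.046), and with 2 or more UMIs of Klf1 and Car1 for Sox4 (-0.13).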

Other observations

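Some stress and arrest genes lay under 20 CPM and so outside the counts of the report. They were chosen here after their values were seen, and those named first were all higher in MYC members. Cdkn1a, the p53 target that halts the cell cycle, had 8 UMIs in control and 42 UMIs in MYC members (0.915 and 13.2 CPM), and 1 MYC member held 40.5% of the latter. Phlda3, another p53 target, had 9 and 40 UMIs (1.03 and 12.5 CPM), and Bbc3, which encodes the killer protein PUMA, 46 and 68 UMIs (5.26 and 21.3 CPM). Of the ATF4 and CHOP list, Trib3 had 2 and 50 UMIs (0.229 and 15.7 CPM) and Nupr1 10 and 68 UMIs (1.14 and 21.3 CPM). Some other genes under 20 CPM were not higher. Intervals spanned equality for the p53 targets Sesn1 (16.6 and 13.2 CPM) and Trp53inp1 (6.63 and 4.70 CPM). Of the immediate early list, Hspa1b had 81 and 2 UMIs (9.26 and 0.627 CPM) and Dusp1 154 and 34 UMIs (17.6 and 10.7 CPM). Over the 10 tested p53 targets the median log2 ratio was 0.01.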
